A study of Tachysurus fulvidraco x Tachysurus vachelli with 6 samples.

Results

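The genes described here have descriptions that point to fatty acids, phospholipids, sphingolipids and sterols, and were measured in the skin of juvenile hybrid yellow catfish (Tachysurus fulvidraco♀ × P. vachellii♂). They were taken from the deposited gene table by the words fatty acid, phospholip, lipase, sterol, acyl-CoA, acyltransferase, ceramide or sphingo in the protein description, together with sc5d, whose description names it lathosterol oxidase. The rule used no measured value, but it was chosen with earlier results of these data known. It also took genes for which another role is given below, such as the receptor-like LOC113634496, the phospholipase D3-like LOC113635803 and plaa. These are counted among the lipid genes. It found 34 genes, of which lpcat2 had an incomplete row and was left out, so 33 of the 2451 complete genes of the table remained. Of these 33, 25 had a mean FPKM (fragment number corrected for transcript length and sequencing depth) of at least 0.5 over the 6 libraries and were tested, among 1620 genes in all.

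The samples were pieces of flank skin, cut posterior to the dorsal fin on the left. There were 3 control libraries of untreated fish, kept in a recirculating system, and 3 libraries of fish after 16 h of simulated transport in shaken, oxygen-filled bags of water. The fish that went into the bags had been fasted beforehand. Whether the control fish were fasted alike is not stated in the sources, so food withdrawal and transport cannot be told apart in these lipid genes. The libraries are described as biological replicates, but whether each held 1 fish or a pool is not given. The p-values below set the difference between the groups against the spread between these libraries. That spread was estimated with information shared among the genes tested.

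Fish skin is a living epithelium covered by mucus, and its cell membranes and surface lipids form part of the barrier to water. Very-long-chain fatty acids are made by a cycle of elongation on the endoplasmic reticulum and can be joined to a sphingoid base to give ceramides, which in mammalian epidermis are the main barrier lipids. Cholesterol is made in many steps that include lanosterol demethylation and lathosterol desaturation, and its synthesis is controlled by the SREBP factors, which SCAP escorts. Phospholipids are remodelled by phospholipases that remove an acyl chain and by acyltransferases that put one back.

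Below, 3 values of a group stand in the order of replicates 1, 2 and 3. How reads shared by close copies (the elongases, the monoglyceride lipases) were counted is not stated, so the values of such genes are uncertain by that. The descriptions of 6 of the 33 genes also carry a low-quality protein mark, left out of the names below. They are fa2h, scap, plaa, LOC113634496, LOC113636775 and LOC113634009. Facts of the libraries bear on every value. Control replicate 1 had a TMM factor, the between-library scaling of edgeR, of 0.712, while the other libraries had 0.968 to 1.17. FPKM values carry no such factor, and control replicate 1 had the lowest FPKM of the 6 libraries in 20 of the 25 lipid genes, as it did in 63.3% of all 1620 genes tested. On counts scaled with TMM factors it was the lowest library in 9 of the 25. The deposited counts summed to 3632651 to 4487002 per library, and the tested lipid genes had mean counts of 37.8 to 5504. In bulk skin, fewer cells of a type and less RNA per cell cannot be told apart.

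Among the 25 lipid genes, edgeR's quasi-likelihood test called 0 (p adjusted over the 1620 genes and under 0.05). Of all genes, 0.37% were called higher and 0.247% lower by that rule. At an unadjusted p under 0.05, 6 lipid genes were higher after transport and 2 lower, where 7.72% of all genes were higher and 9.14% lower. The 6 make up 24% of the tested lipid genes and the 2 make up 8%, a share close to that of all genes. Both directions together gave 8 of 25 lipid genes and 16.9% of all genes. The 6 were the ELOVL4-like gene LOC113635322, fa2h, sgpl1, lpcat4, sc5d and gdpd1, and the 2 were the sphingosine 1-phosphate receptor 1-like gene LOC113634496 and the phospholipase D3-like gene LOC113635803. Their adjusted p in edgeR's test lay between 0.090 and 0.259. Without control replicate 3, edgeR's test called LOC113635322, fa2h and lpcat4 higher, 3 of the 25, where it called 1.85% of all genes higher and 2.16% lower. DESeq2 called 4 higher (LOC113635322, fa2h, sc5d and sgpl1) and 0 lower, where it called 4.38% of all genes higher and 5.12% lower. limma on log2(FPKM + 0.5) called 0 of the 25, where it called 0.679% of all genes higher and 0.123% lower.

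The methods of the study set both a p and a fold threshold. An unadjusted p under 0.05 with mean FPKM differing by a log2 ratio of 1 or more was reached by 4 lipid genes, LOC113635322, fa2h, sc5d and gdpd1, each higher after transport. The study also lists an FPKM above 10 as a criterion, which was not applied here. The mean FPKM of the 4 was 1.26 to 5.32, so by this mean none of them would meet it. Of all genes tested, 4.51% were higher and 3.58% lower by that rule. The count of 4 was 2 without control replicate 1, in which these genes had their lowest FPKM. It was 7 without control replicate 3 or without transport replicate 2. The share of all genes past both thresholds was not counted in those fits. By adjusted p, edgeR's test called 6 of all genes higher and 4 lower with the 6 libraries. It called 30 higher and 35 lower without control replicate 3, and 2 and 0 without transport replicate 2. The median log2 fold change of the 25 lipid genes was 0.25 with TMM factors, beside -0.02 for all genes tested, and 15 of the 25 estimates were above 0, as were 48% of all estimates, the other 52% being below 0. Without TMM factors these medians were 0.53 and 0.27. Without control replicate 1 the median of the lipid genes was 0.08. The factors moved the median gene by -0.30 on the log2 scale, and 5 of the 25 lipid genes had an estimate below 0 without them and 10 with them.

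**Figure D1:**
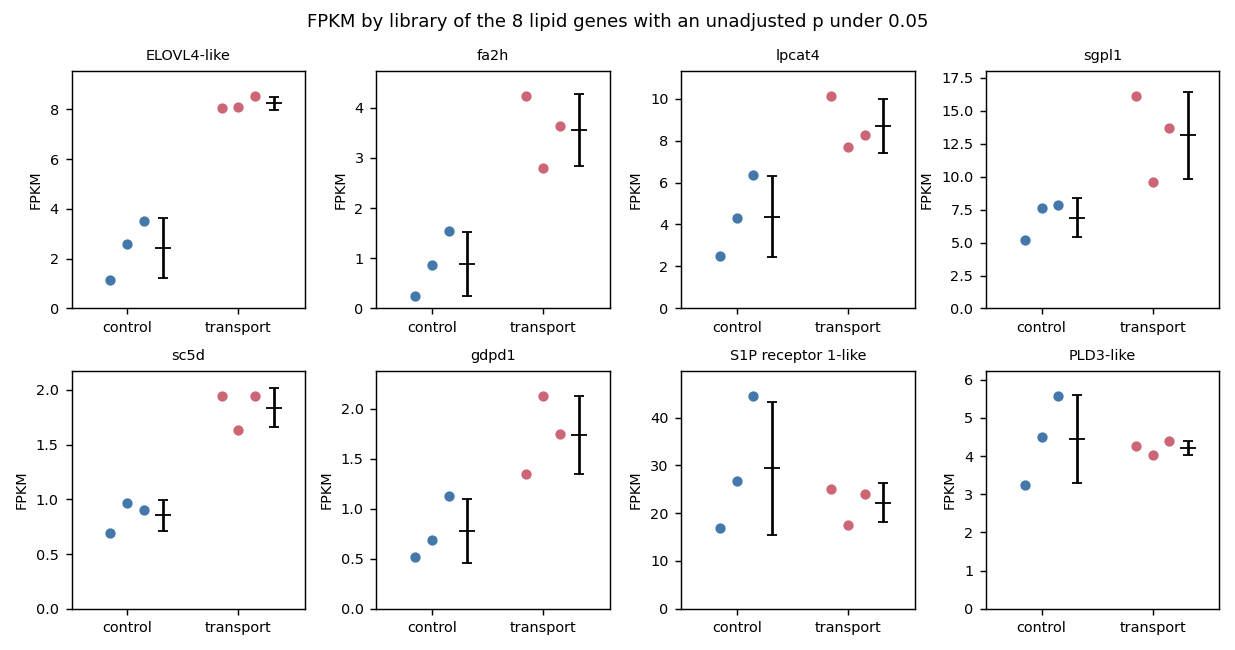
FPKM (vertical axis, from 0) in each library (points) of the 8 lipid genes with an unadjusted p under 0.05, with the mean and SD of the 3 libraries of a group beside the points (horizontal axis: control, blue; transport, red). In the ELOVL4-like gene, fa2h, lpcat4, sgpl1, sc5d and gdpd1 the transport libraries lay above the control libraries, and in the receptor-like and PLD3-like genes the groups overlapped on this scale.

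The genes of fatty acid elongation and hydroxylation held the largest estimates above 0 among the 25. LOC113635322, described as elongation of very long chain fatty acids protein 4-like, lies on scaffold NW_020848191.1 from 27934 to 35458 on the plus strand. In mammals ELOVL4 makes the very long acyl chains of epidermal ceramides and of the retina. The gene had an FPKM of 1.14, 2.59 and 3.51 in the controls and of 8.07, 8.11 and 8.53 after transport. The groups did not overlap, and the transport libraries differed far less among themselves than the control libraries did (8.23 ± 0.255 against 2.42 ± 1.20, SD, n = 3). On the log2 scale the fold change was 1.53 (standard error 0.29, unadjusted p = 0.0016, adjusted p = 0.090 in edgeR's test), a fold of 2.88. Of the 1620 genes tested, 27 had a smaller p. Leaving out each library in turn gave log2 fold changes of 1.30 to 1.77 and an adjusted p of 0.0383 to 0.36, the lowest of these without control replicate 3. DESeq2 gave an adjusted p of 8.2e-05 and limma one of 0.077.

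The gene fa2h encodes fatty acid 2-hydroxylase, which puts a hydroxyl group on the acyl chain before it enters ceramide, a form abundant in mammalian epidermis and myelin. It lies on scaffold NW_020848201.1 from 2524697 to 2556456 of the plus strand. In FPKM it stood at 0.251, 0.860 and 1.54 in the controls, and 4.23, 2.81 and 3.64 after transport. The lowest transport library stood above the highest control library, though the control values themselves spread over several-fold. The log2 fold change was 1.81 (standard error 0.49, unadjusted p = 0.0087, adjusted p = 0.168 in edgeR's test). The estimate ran from 1.44 without control replicate 1 to 2.34 without control replicate 3, where the adjusted p was 0.0474, the lowest of the fits that left out a library, which reached 0.504. DESeq2 gave an adjusted p of 0.0078 and limma 0.095.

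The other 2 genes of this group are elovl7, an elongase of saturated long chains in mammals, and fads6, of the fatty acid desaturase family. The FPKM of elovl7 was 4.68, 6.13 and 13.9 in the controls and 8.74, 13.7 and 16.0 after transport. These groups overlapped, and the log2 fold change was 0.40 (standard error 0.37). It was 0.82 without control replicate 3, with an unadjusted p of 0.0349 in edgeR's test, and 0.21 without control replicate 2. That of fads6 was -0.14 (standard error 0.30) and turned to 0.09 without TMM factors. Both genes had their highest control value in replicate 3.

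A further step of the elongation cycle, the reduction of the 3-oxoacyl chain, is the role of the very-long-chain 3-oxoacyl-CoA reductase-B-like gene LOC113636775. Its FPKM was 3.27 to 3.98 in control and 4.05 to 4.95 in transport libraries, so that the groups did not overlap in FPKM. With TMM factors the groups overlapped and the log2 fold change was -0.07 (standard error 0.25), while without them it was 0.28. The fatty acyl-CoA reductase 1-like gene LOC113635923, whose product makes the fatty alcohols of ether lipids, was estimated at -0.36 on the log2 scale (standard error 0.22), at -0.08 without TMM factors and at -0.17 without control replicate 3. On TMM-scaled counts each of its transport libraries lay below each control library, but in FPKM the groups overlapped. The acyl-CoA desaturase 1 gene LOC113636202, which introduces the double bond of monounsaturated chains, was below the FPKM minimum, with 0 to 19 counts in control and 6 to 43 in transport libraries.

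**Figure D2:**
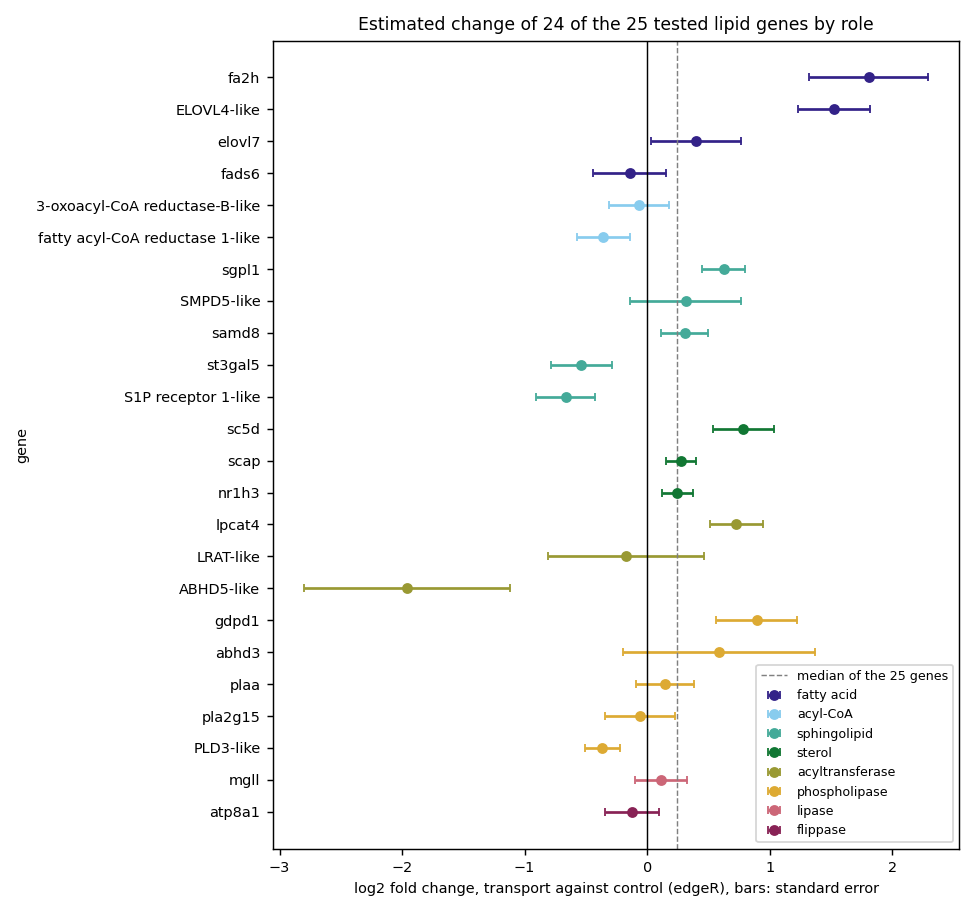
Log2 fold change of transport against control from edgeR's test (horizontal axis) for 24 of the 25 tested lipid genes (vertical axis), coloured by role, with bars of 1 standard error. The estimates ran from -1.96 for the ABHD5-like gene to 1.81 for fa2h, and the dashed line marks the median of the 25, 0.25.

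The sphingolipid genes had estimates on both sides of 0. The gene sgpl1 (scaffold NW_020848202.1, 1759920 to 1772461, plus strand) encodes sphingosine-1-phosphate lyase, which cleaves sphingosine 1-phosphate irreversibly. Its FPKM was 5.17, 7.62 and 7.84 in the controls, and 16.1, 9.60 and 13.7 after transport. The groups did not overlap, and the lowest transport library, replicate 2, was close to the controls. Its log2 fold change was 0.62 (standard error 0.18, unadjusted p = 0.0109, adjusted p = 0.175 in edgeR's test), with an adjusted p of 0.049 in DESeq2 and 0.197 in limma.

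LOC113634496, described as sphingosine 1-phosphate receptor 1-like, encodes a G-protein-coupled receptor for the same lipid, known in mammals for lymphocyte exit and vessel integrity. It lies on scaffold NW_020848156.1 from 874490 to 878396 on the plus strand. It had the highest mean FPKM of the 25 lipid genes, 25.8, and was at 16.8, 26.8 and 44.5 in the controls. After transport it was at 25.04, 17.6 and 24.0. In FPKM the groups overlapped, since control replicate 1 was the lowest library. On TMM-scaled counts (CPM, counts scaled to the mapped reads), however, control replicate 1 was at 105 and the highest transport library at 92.2, and the groups did not overlap. The log2 fold change was -0.66 (standard error 0.24, unadjusted p = 0.0311, adjusted p = 0.241 in edgeR's test), and without TMM factors it was -0.40 with an unadjusted p of 0.294. It was -0.39 without control replicate 3, and leaving out that library or any transport library gave unadjusted p-values of 0.0511 to 0.0961.

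Of the other 3 sphingolipid genes, samd8 makes ceramide phosphoethanolamine in mammals. It was at an FPKM of 3.33 to 4.83 in control and 5.57 to 6.67 in transport libraries, without overlap, and its log2 fold change was 0.31 (standard error 0.19, unadjusted p = 0.154 in edgeR's test), or 0.62 without TMM factors with an unadjusted p of 0.0292. The gene st3gal5, which encodes the enzyme that adds sialic acid to lactosylceramide to make the first ganglioside of the series, had overlapping groups and a log2 fold change of -0.54 (standard error 0.25, unadjusted p = 0.069 in edgeR's test), or -0.69 without control replicate 2 with an unadjusted p of 0.0344. The sphingomyelin phosphodiesterase 5-like gene LOC113634362, whose product releases ceramide from sphingomyelin, was at 0.637, 2.03 and 3.44 in the controls and 3.30, 2.16 and 3.31 after transport. Its control libraries covered the range of its transport libraries, and its log2 fold change was 0.32 (standard error 0.45). The estimate turned to -0.04 without control replicate 1 and was 0.79 without control replicate 3.

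The 3 tested sterol genes, sc5d, scap and nr1h3, each had an estimate above 0, and in each the transport libraries lay above the control libraries both in FPKM and on TMM-scaled counts. Of all genes tested, 48% had an estimate above 0, and the transport libraries lay wholly above in 24.1% in FPKM and in 12.9% on TMM-scaled counts. The gene sc5d encodes the enzyme that desaturates lathosterol late in cholesterol synthesis (scaffold NW_020848170.1, 1799360 to 1805656, minus strand). It was at an FPKM of 0.689, 0.966 and 0.903 in the controls and at 1.94, 1.64 and 1.94 after transport. Its control libraries were close together, unlike those of most of the other lipid genes higher after transport. The log2 fold change was 0.79 (standard error 0.25, unadjusted p = 0.0183, adjusted p = 0.21 in edgeR's test), with adjusted p-values of 0.0085 by DESeq2 and 0.164 by limma. Leaving out each library in turn gave estimates of 0.71 to 0.84, with unadjusted p-values of 0.0307 to 0.0721, above 0.05 without transport replicate 1 or transport replicate 3.

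SCAP, the sterol sensor that escorts SREBP, is encoded by scap, and the oxysterol receptor LXR-alpha, which switches on genes of cholesterol efflux in mammals, by nr1h3. The FPKM of scap was 2.39, 3.97 and 3.93 in control and 5.58, 4.49 and 5.20 after transport. That of nr1h3 was 3.33, 5.08 and 5.80 in control and 6.61, 6.37 and 7.60 after transport. Neither pair of groups overlapped, but the differences were small, with log2 fold changes of 0.28 (standard error 0.12) and 0.25 (standard error 0.13). Their unadjusted p-values in edgeR's test were 0.0634 and 0.0972, and that of scap was 0.0466 without control replicate 2.

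Below the FPKM minimum, the gene LOC113634009, described as lanosterol 14-alpha demethylase, had 0, 32 and 32 counts in control and 47, 59 and 65 after transport. It acts earlier than sc5d in the same pathway, and the table annotates both genes to steroid biosynthesis. Its groups did not overlap, with control replicate 1 at 0, a count that allows up to 3. In the fit without a filter its unadjusted p was 0.372. The phosphatidylcholine-sterol acyltransferase gene lcat, which makes cholesteryl esters in plasma, had 0 to 23 counts in control and 0 to 14 in transport libraries.

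Over the 25 genes, the FPKM of the transport libraries lay wholly above those of the control libraries in 10 and wholly below in 0, where 24.1% of all genes tested did so above and 3.7% below. On TMM-scaled counts these numbers were 9 and 3, or 36% and 12% of the lipid genes, beside 12.9% and 11.2% of all genes. For a single gene, complete separation of 3 from 3 libraries gives an exact permutation p of 0.1 (two-sided), the smallest this design allows. The 9 were LOC113635322, fa2h, lpcat4, sgpl1, sc5d, gdpd1, scap, nr1h3 and samd8. The 3 were the receptor-like LOC113634496, the PLD3-like LOC113635803 and the reductase-like LOC113635923.

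**Figure D3:**
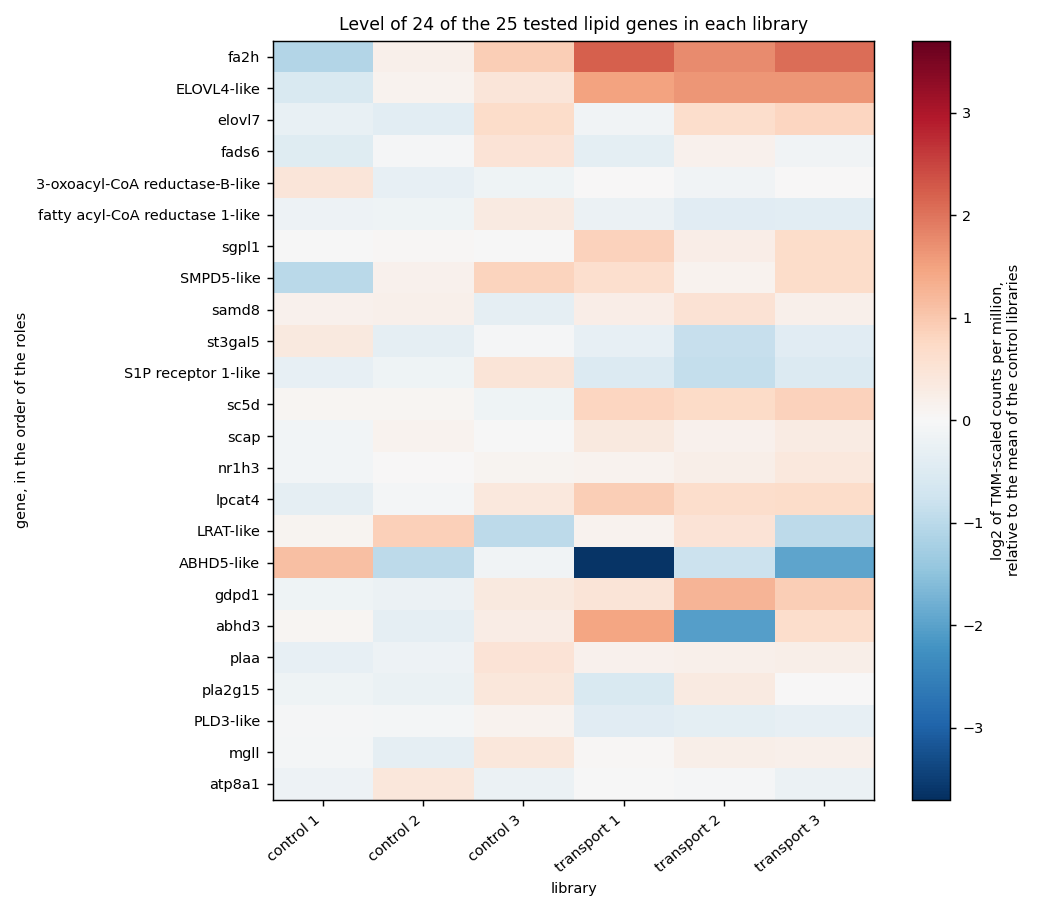
Log2 of TMM-scaled counts (CPM) in each library (columns), relative to the mean of the control libraries, for 24 of the 25 tested lipid genes (rows, in the order of their roles). Red is above and blue below the control mean on the colour scale. The genes fa2h and ELOVL4-like were high in the 3 transport libraries, and the ABHD5-like and abhd3 genes differed widely between libraries of the same group.

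Genes that attach or move acyl chains on glycerolipids were mixed. The gene lpcat4 encodes a lysophospholipid acyltransferase, which re-esterifies lysophospholipids (scaffold NW_020848200.1, 2365370 to 2377229, minus strand). It was at an FPKM of 2.49, 4.29 and 6.36 in the controls and at 10.1, 7.67 and 8.28 after transport. The groups did not overlap, and the control libraries again spread more than the transport libraries (4.38 ± 1.93 against 8.69 ± 1.27, SD, n = 3). For lpcat4 the log2 fold change was 0.73 (standard error 0.22, unadjusted p = 0.0133, adjusted p = 0.19 in edgeR's test). In DESeq2 the adjusted p reached 0.0513, and it was 0.0474 in edgeR's test without control replicate 3, the lowest of the fits that left out a library, which reached 0.504.

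LOC113635052 is described as the ABHD5-like 1-acylglycerol-3-phosphate O-acyltransferase. In mammals ABHD5 activates the main triglyceride lipase of lipid droplets and is needed for the acylceramides of the skin barrier. Its FPKM was 2.29, 0.769 and 1.49 in the controls and 0.144, 0.952 and 0.440 after transport. Transport replicate 2 lay above control replicate 2, so the groups overlapped. The log2 fold change of -1.96 was the lowest of the 25 and carried the largest standard error, 0.84, with an unadjusted p of 0.0553 in edgeR's test. The unadjusted p was 0.0202 in DESeq2 and 0.0302 in limma. In edgeR's test it was 0.0463 without a filter, but 0.0608 without TMM factors and 0.148 with the replicate block. It was 0.0666, 0.106 and 0.138 in edgeR's test without control replicate 3, transport replicate 1 and transport replicate 3. The adjusted p was 0.308 in edgeR's test, 0.134 in DESeq2 and 0.233 in limma. The estimate was -2.81 without transport replicate 2, -2.32 without control replicate 2 and -1.22 without control replicate 1, with unadjusted p-values of 0.0249, 0.0419 and 0.196 in edgeR's test. The lecithin retinol acyltransferase-like gene LOC113634831, which in mammals stores retinol as esters and so acts on vitamin A, was at 0.375 to 1.27 in control and 0.399 to 1.06 in transport libraries, and its log2 fold change was -0.17 (standard error 0.64) and turned to 0.13 without TMM factors.

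Among the phospholipase genes, gdpd1 (scaffold NW_020847776.1, 829246 to 838491, plus strand) encodes a lysophospholipase D that forms lysophosphatidic acid. It was at an FPKM of 0.513, 0.693 and 1.13 in the controls and 1.35, 2.13 and 1.75 after transport. Without overlap between the groups, its log2 fold change was 0.89 (standard error 0.33, unadjusted p = 0.0329, adjusted p = 0.245 in edgeR's test). Its unadjusted p was 0.079 without control replicate 1, 0.089 without control replicate 2, 0.107 without transport replicate 2 and 0.0772 without transport replicate 3.

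The phospholipase D3-like gene LOC113635803 had an FPKM of 3.25, 4.51 and 5.56 in the controls and 4.26, 4.02 and 4.38 after transport. In mammals its counterpart is a lysosomal protein that cleaves nucleic acids, in spite of its name. The FPKM groups overlapped. On TMM-scaled counts the transport libraries were lower, and the log2 fold change was -0.37 (standard error 0.14, unadjusted p = 0.0374, adjusted p = 0.259 in edgeR's test), but the estimate shrank to -0.07 without TMM factors. Leaving out control replicate 3 or any transport library gave unadjusted p-values of 0.0805 to 0.112. The gene abhd3, whose product cleaves phosphatidylcholine in mammals, was at 2.85, 0.228 and 1.59 after transport against 0.635 to 1.13 in control libraries. Transport replicate 2 was thus below, and the remaining transport libraries above, each control library. Its log2 fold change was 0.58 (standard error 0.78), 1.09 without transport replicate 2 and -0.15 without transport replicate 1.

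The lysosomal phospholipase A2 gene pla2g15 and the gene plaa were abundant and did not separate the groups. They had log2 fold changes of -0.06 (standard error 0.29; 0.19 without TMM factors) and 0.15 (standard error 0.23). The product of plaa binds ubiquitin and entered the list by the words phospholipase A-2-activating. Without control replicate 3, in which plaa had its highest FPKM of 13.2, its log2 fold change was 0.45 with an unadjusted p of 0.0093 and an adjusted p of 0.0965. The gene mgll encodes the lipase that releases fatty acids from monoglycerides and breaks down an endocannabinoid. It was at an FPKM of 2.72 to 5.90 in control and 4.98 to 5.39 in transport libraries, and its log2 fold change was 0.11 (standard error 0.21).

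The gene atp8a1 encodes a flippase, a pump that holds phosphatidylserine on the inner leaflet of membranes. It was at an FPKM of 1.22, 2.62 and 1.81 in the controls and 2.33, 2.06 and 1.94 after transport. The groups overlapped, and the log2 fold change was -0.12 (standard error 0.22), which turned to 0.17 without TMM factors.

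The 8 genes below the minimum had at most 73 counts in a library. Of these, 3 had 0 counts in every transport library: the monoglyceride lipase gene LOC113634862 (0, 0 and 8 counts in the controls), the secretory phospholipase A2 receptor-like gene LOC113635235 (0, 4 and 23) and the patatin-like phospholipase domain-containing protein 2 gene LOC113636090 (0, 0 and 1). In each most or all counts came from control replicate 3, and no difference was detectable at this depth. The others not yet named, the phospholipid-transporting ATPase ID-like LOC113633960 and the ABHD2-B-like LOC113635733, had 8 to 73 and 0 to 34 counts, with overlapping groups.

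By position, 10 of the 33 genes lie on scaffold NW_020848201.1, which holds 541 of the 2451 genes of the table. Here lcat ends 3627 bases before pla2g15, with no other gene of the table between them. Both encode proteins of the same acyltransferase family. The gene fa2h follows 48703 bases further on the same strand, with 4 other genes of the table between pla2g15 and fa2h. These 3 genes had different levels: lcat was near 0, the FPKM of pla2g15 was 5.91 to 13.8 over the 6 libraries, and fa2h was 0.251 to 4.23. On scaffold NW_020848151.1 the SMPD5-like gene and scap lie 22636 bases apart, with 3 other genes of the table between them. Among the 33 genes, the pathway annotation gave fatty acid elongation for LOC113635322, elovl7 and LOC113636775. Only the first of these 3 had an unadjusted p under 0.05. Genes outside the 33 were not searched for this pathway. The wider list described below holds tecr, named very-long-chain enoyl-CoA reductase. Its log2 fold change was -0.33 (standard error 0.38, unadjusted p = 0.424 in edgeR's test).

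Across the 25 genes, the FPKM of the control libraries varied more than that of the transport libraries. The median coefficient of variation was 43.3% over control and 13.5% over transport libraries, and it was larger in control in 21 of the 25 genes. Over all genes tested these medians were 33.0% and 15.3%, and the control value was the larger in 84.1%, so the direction of this difference was common in the table.

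A wider list of lipid genes that the description words did not take held 15 genes of the table, of which 14 were tested. By edgeR's unadjusted p under 0.05, 4 were higher and 2 lower, where 7.72% and 9.14% of all genes were, with a median log2 fold change of -0.01. The 4 include 3 genes of energy regulation and lipid binding: adipor2, an adiponectin receptor gene, the PPAR gamma coactivator 1-beta-like LOC113635862, and the apolipoprotein L3-like LOC113634493. Their log2 fold changes were 1.20, 1.69 and 3.97, with adjusted p-values of 0.0359, 0.0278 and 0.0525 in edgeR's test. With all 6 libraries adipor2 and LOC113635862 thus passed over all genes. Without transport replicate 1 or transport replicate 3, edgeR's test called 0 of all genes, so neither passed there. The fourth was LOC113634480, described as low-density lipoprotein receptor-like, the receptor family that takes up cholesterol-carrying particles. Its FPKM was 0.594, 1.08 and 1.77 in the controls and 4.90, 3.04 and 3.74 after transport. The groups did not overlap, with an estimate of 1.51 on the log2 scale (standard error 0.29, adjusted p = 0.090 in edgeR's test, 2.9e-04 in DESeq2).

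The 2 lower genes of that list were acsl4, which activates arachidonic acid and like chains, and the arachidonate 12-lipoxygenase-like LOC113635137, which oxidises that fatty acid. The FPKM of acsl4 was 4.88, 2.95 and 7.09 in the controls and 3.48, 3.55 and 3.04 after transport. That of LOC113635137 was 4.33, 3.59 and 6.75 in control and 3.16, 3.65 and 3.00 after transport. In both, the groups overlapped in FPKM, with log2 fold changes of -0.90 (standard error 0.33) and -0.89 (standard error 0.26). Their adjusted p-values were 0.242 and 0.19 in edgeR's test and 0.454 and 0.371 in limma. DESeq2 gave an adjusted p of 0.12 for acsl4 and of 0.0409 for LOC113635137, and so called LOC113635137 lower. The gene LOC113636660, described as the liver form of carnitine O-palmitoyltransferase 1, which admits fatty acids to mitochondria for oxidation, was estimated at -0.03 on the log2 scale (standard error 0.12) and at 0.26 without TMM factors. The list also took atp6v0b and LOC113636482 by their descriptions, which are not those of lipid enzymes.

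**Figure D4:**
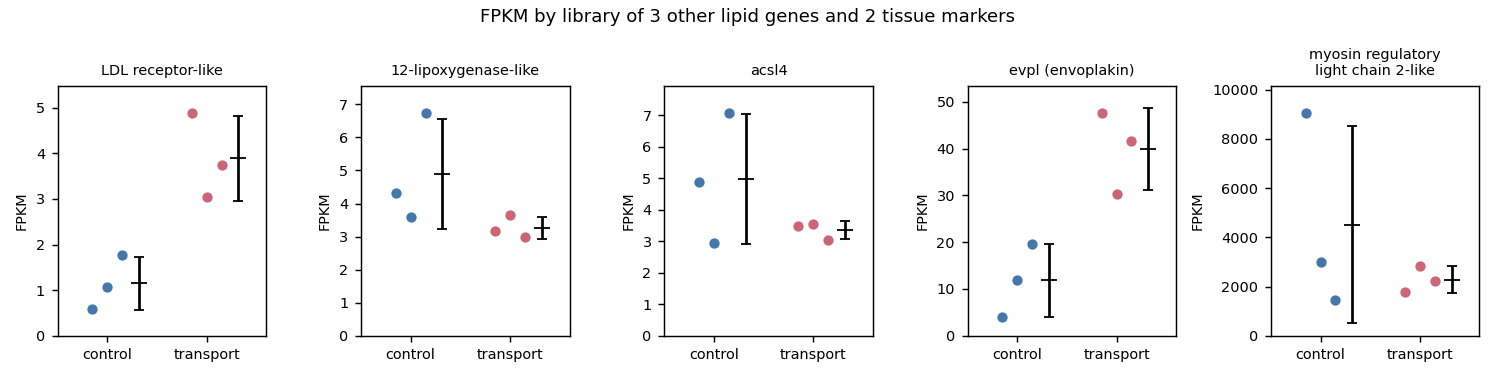
FPKM (vertical axes, from 0) in each library (points) of 3 lipid genes outside the description words and of 2 marker genes, with the mean and SD of the 3 libraries of a group (control, blue; transport, red). The LDL receptor-like and evpl values of the transport libraries lay above those of the control libraries, and the myosin gene was highest in control replicate 1 at 9075.

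Marker genes of other cell types also differed between the libraries. Of the mucous cell genes, the mucin-2-like LOC113635236, a gel-forming mucin of goblet cells in mammals, was at an FPKM of 0.0384, 0 and 0.0223 in the controls and 8.59, 0.347 and 5.66 after transport (unadjusted p = 0.0022, adjusted p = 0.101 in edgeR's test). Transport replicate 1 was the highest and transport replicate 2 the lowest of the transport libraries in this gene, as in fa2h, lpcat4, sgpl1 and scap. In sc5d transport replicate 2 was also the lowest, with transport replicates 1 and 3 both at 1.94. Further lipid genes higher after transport had other orders. LOC113635322 and nr1h3 were highest in transport replicate 3, and gdpd1 and samd8 in transport replicate 2. The share of all genes with the order of the mucin gene was not counted. The membrane mucin gene muc15 was at 16.3 to 40.5 in control and 29.4 to 36.7 in transport libraries. The keratinocyte list was represented by evpl, which encodes envoplakin of the cornified envelope and desmosomes in mammals. Its FPKM was 3.93, 11.9 and 19.7 in the controls and 47.7, 30.4 and 41.7 after transport, and its log2 estimate was 1.54 (unadjusted p = 0.0094, adjusted p = 0.173 in edgeR's test). In FPKM, control replicate 1 was lowest and transport replicate 1 highest in evpl, and likewise in fa2h, lpcat4, sgpl1 and scap. The same held for sc5d, though its transport replicates 1 and 3 were equal after rounding. Over all genes tested, control replicate 1 was lowest in 63.3% and transport replicate 1 highest in 32.7% on that scale. The share of all genes with both was not counted. On TMM-scaled counts control replicate 1 was not the lowest library for sgpl1 or sc5d. For sc5d the highest library on that scale was transport replicate 3, at 7.62 beside 7.35 in transport replicate 1. The summed FPKM of the 5 genes with a muscle description was 1699 to 9665 in control and 2120 to 3720 in transport libraries, with the highest sum in control replicate 1. Of these 5, the myosin light chain gene LOC113636033 made up most of the sum and was the only one highest in that library. Without control replicate 1 the estimates of fa2h, LOC113635322, sgpl1, lpcat4, sc5d and gdpd1 were 1.44, 1.30, 0.62, 0.58, 0.83 and 0.81. With all 6 libraries they were 1.81, 1.53, 0.62, 0.73, 0.79 and 0.89. The median of the 25 lipid genes was 0.08 without that library and 0.25 with it. The leukocyte gene spi1 was at 5.40 to 9.06 in control and 7.77 to 12.2 in transport libraries, and the 2 collagen genes of the fibroblast list summed to 27.1 to 42.6 and 25.5 to 33.1. The 2 pigment cell genes summed to 3.61 to 7.98 in control and 1.55 to 3.22 in transport libraries. Of these, tyrp1 was at 6.17, 4.80 and 2.07 in the controls and 0.511, 1.48 and 0.828 after transport, without overlap. Its log2 estimate was -2.61 (unadjusted p = 0.0070, adjusted p = 0.159 in edgeR's test). That of mlph was -0.81 (unadjusted p = 0.0631 in edgeR's test), with overlapping groups in FPKM. Of the adipocyte list, 0 of 7 genes were in the table used here, so the fat cells of the skin samples were not checked. The part of these markers in the lipid results was not tested.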

How the data were processed

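Poly(A) RNA of 6 skin libraries was sequenced as paired reads. The authors used Cutadapt for trimming, HISAT for alignment and StringTie for assembly. The alignment reference is named as human in the study's methods and as yellow catfish in its results, and which one lies behind the deposited values was not settled here. Versions, genome build and strandedness are not stated in the sources. The read counts deposited per gene are whole numbers that were not normalized. The FPKM values deposited beside them were made by the authors with StringTie and are scaled to transcript length and mapped fragments. A further 12 columns of per-sample values were not used, and 1 of 2452 rows was incomplete. Coordinates are as the table gives them.

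Genes whose mean FPKM reached 0.5 (1620) entered the test in R 4.3.3 with edgeR 4.0.16 (quasi-likelihood, trended dispersion, TMM factors, condition as the only term), with the mapped reads stated by the study as library sizes, because the table covers part of the genes. P-values were adjusted over the 1620 genes with the Benjamini-Hochberg method, and standard errors were derived from the fold change with its F statistic. DESeq2 1.42.0 and limma 3.58.1 on log2(FPKM + 0.5) were alternatives. The test was tried on counts simulated with edgeR's trended dispersion, so spread particular to a gene was not covered. At an adjusted p under 0.05 edgeR's test recovered 39% of 100 genes changed by 1 on the log2 scale. It recovered 82% of 100 changed by 2, with 4 false calls. limma recovered 36% and 76%, with 17 false calls. Both sets of 100 were changed in the same simulated run and drawn only from genes above a minimum expected count. With fewer changed genes the adjustment over genes is stricter, so recovery in the real data may be lower. A count of 0 called therefore does not show that the lipid genes were unchanged. Pairs of libraries within a group differed far beyond sampling noise (chi-square per gene 48.3 to 755).

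The members, lists and tests were chosen with earlier results of these data known. The naming rule took members with an unadjusted p under 0.05, sc5d, the most abundant tested member and that of smallest p in each role, tested members at 0 counts throughout a group, members within 50 kb of a named one and, from the wider list, the gene of smallest p in each direction. The remaining members are named to account for each, except 1 tested gene that enters the counts and medians but is not reported here by itself, and the further genes of the wider list and the markers by choice once their values were known.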

Additional observations from a re-analysis of the deposited data

How the results depend on the processing

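No alternative turned the sign of LOC113635322, fa2h, lpcat4, sgpl1, sc5d, gdpd1, LOC113634496 or LOC113635803. The count of lipid genes called was 0 in edgeR's test with each filter, scaling and library size tried and in limma, and 4 in DESeq2. The lower genes at an unadjusted p under 0.05 went from 2 to 0 without TMM factors and with limma on log2(FPKM + 2), while limma with pseudocounts of 0.5 and 0.1 gave 1, which was LOC113635052 and neither of the 2. The median log2 fold change of the lipid genes was 0.53 without TMM factors and 0.49 and 0.51 in limma with pseudocounts of 0.5 and 0.1. Over all genes tested the medians of these fits were 0.27, 0.29 and 0.32. The genes past both thresholds numbered 2 with a mean FPKM of at least 2, which leaves out low genes, and 2 with the replicate block. The estimate of LOC113636775 turned to 0.28 without TMM factors and to 0.26, 0.29 and 0.20 in limma with pseudocounts of 0.5, 0.1 and 2. Leaving out each library in turn gave 0 to 3 called, 4 to 8 higher and 0 to 4 lower lipid genes. It gave 2 to 7 past both thresholds and medians of 0.08 to 0.29. The shares of all genes at an unadjusted p or past both thresholds were not counted in these fits or in the alternatives above. The 3 called (LOC113635322, fa2h and lpcat4) came without control replicate 3, and the lower genes numbered 0 without control replicate 3, transport replicate 1 or transport replicate 3. Single omissions gave -0.22 to 0.20 for LOC113636775, -0.0046 to 0.45 for plaa and -0.042 to 0.35 for mgll. They also turned LOC113634362 to -0.04, fads6 to 0.15, LOC113634831 to 0.35, abhd3 to -0.15, atp8a1 to 0.12 and pla2g15 to 0.19, genes whose estimates were smaller than their standard errors. The cause was not tested.

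The deviations of same-numbered libraries gave r of -0.108, 0.0812 and 0.0873 over genes for numbers 1, 2 and 3. Pairs of different numbers gave -0.172 to 0.136, a range that holds these values. Deviations within a group are also tied to each other through its mean. These r values therefore cannot tell whether same-numbered libraries belong together. With the replicate block, 4 higher and 2 lower lipid genes had an unadjusted p under 0.05, where the share of all genes was not counted. By adjusted p, 0 of all genes were called. There sc5d, gdpd1 and LOC113635803 no longer passed, with unadjusted p-values of 0.0512, 0.0591 and 0.0805 in edgeR's test, and st3gal5 did, with one of 0.033. Depth limits the 8 genes below the FPKM minimum.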
